A study of Homo sapiens with 8 samples.

Results

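The Krüppel-like factor (KLF) family was followed in m6A sequencing data of HCT116, a human colorectal carcinoma cell line. The members were KLF2, KLF3, KLF4, KLF5, KLF6, KLF7, KLF9, KLF10, KLF11 and KLF13. They were taken by gene symbol, with earlier results of these data known. They made up 10 of the 19475 entries of the expression table and 24 of the 22001 m6A regions formed from 4 peak lists. HCT116 cells had received PBS (Control) or the bacterium Fusobacterium nucleatum (FUSO), according to the methods for 2 h with 100 bacteria per cell, and every group was this 1 cell line. Poly(A) RNA fragments were sequenced before (input) and after (IP) enrichment with an m6A antibody, with 2 Control and 2 FUSO replicates of each, 8 samples in all. The question was whether the bacterium changed the mRNA level of these genes, or the presence and place of m6A on their transcripts.

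KLF proteins are transcription factors that bind GC-rich and CACCC-containing promoters through a conserved array of C2H2 zinc fingers at the carboxyl terminus. Their amino-terminal parts differ and recruit either coactivators or corepressors, so that some members mainly activate and others mainly repress. In the gut epithelium KLF4 is known for growth arrest and differentiation and KLF5 for proliferation of crypt cells. m6A is a methyl mark on adenosines of mRNA, written within the motif DRACH (D is any base but C, R a purine, H any base but G), of which GGAC is a favoured core, and it is frequent near stop codons. Many KLF mRNAs are short-lived and respond early to stimuli.

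Relative depth of the input libraries, an estimate from FPKM ratios of the lowest genes, ranged from 0.915 in FUSO 2 to 1.24 in FUSO 1, with Control 1 set to 1. In a pair of libraries 6 to 12 genes shared the most frequent ratio, among 261 to 329 genes compared. The depths missed the ratios of the pairs by at most 0.00213 on the log2 scale. The files gave no read numbers, so how deeply each input or IP library was sequenced is unknown. Between 14566 and 14816 genes were above 0 FPKM (fragments scaled by transcript length and by library total, so that levels are comparable between genes). Of 7 epithelial markers, 6 averaged at least 1 FPKM, their summed level was 4799 to 5175 FPKM in Control and 4355 to 4724 FPKM in FUSO, and VIL1 was at or near 0. Nearly all of this sum was KRT8, KRT18 and KRT19. Of the 6 tested, EPCAM and CDH1 were higher in both FUSO libraries (log2 change 0.11 and 0.16). KRT8, KRT18 and CDX2 were lower in both (log2 change -0.18, -0.23 and -0.26). Of all genes tested, 26.1% were higher in both and 21.1% lower in both. Of these markers 0 passed the adjusted threshold, while KRT8 and CDX2 were lower at an unadjusted limma p under 0.05. Of 8 markers of blood, endothelium and fibroblasts, 5 stayed under 0.1 FPKM in every library, with CD3E and COL1A2 at 0. The summed level of these 8 was 11.7 and 13.2 FPKM in Control and 14.3 and 14.8 FPKM in FUSO, nearly all of it CD68 and COL1A1. What part this had in any change below was not tested.

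The zinc finger array was coded by 243 nt in each of the 10 transcripts, at residues 371 to 451 in KLF10 and 202 to 282 in KLF6, for example. This segment ended between 6 nt (KLF2, KLF4, KLF6 and KLF7) and 120 nt (KLF13) before the end of the stop codon. Identity between members over the 243 nt ranged from 55.1% for KLF3 and KLF9 to 83.5% for KLF6 and KLF7, with a median of 65.0% over 45 pairs. The longest run of identical bases between the coding sequences of any pair was 26 nt, again in KLF6 and KLF7. In every member an exon junction followed base 73 of the segment, and 7 members held GGAC between bases 52 and 111, on either side of it. Bases 52 to 111 of the segment are given here for 9 members because they hold those motifs, read 5′ to 3′ from GRCh37 with the intron removed, and GGAC is in capitals.
KLF2 (chr19:16436822-16437704, plus strand): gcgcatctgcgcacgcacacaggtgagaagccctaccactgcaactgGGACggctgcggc
KLF3 (chr4:38696506-38698740, plus strand): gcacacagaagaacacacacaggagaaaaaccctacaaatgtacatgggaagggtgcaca
KLF4 (chr9:110248170-110249330, minus strand): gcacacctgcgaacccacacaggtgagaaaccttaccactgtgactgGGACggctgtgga
KLF5 (chr13:73638000-73649883, plus strand): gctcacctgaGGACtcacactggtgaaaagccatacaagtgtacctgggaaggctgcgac
KLF6 (chr10:3822384-3823854, minus strand): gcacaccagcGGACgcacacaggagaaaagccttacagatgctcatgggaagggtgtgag
KLF7 (chr2:207953268-207988519, minus strand): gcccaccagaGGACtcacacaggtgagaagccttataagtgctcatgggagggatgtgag
KLF9 (chr9:73002884-73027796, minus strand): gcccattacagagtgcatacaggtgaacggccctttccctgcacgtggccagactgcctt
KLF11 (chr2:10188701-10192391, plus strand): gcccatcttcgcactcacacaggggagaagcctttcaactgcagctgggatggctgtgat
KLF13 (chr15:31619971-31664250, plus strand): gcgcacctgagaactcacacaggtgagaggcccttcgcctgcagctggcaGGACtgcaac

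GGAC began at base 62 in KLF5, KLF6, KLF7 and KLF10, at base 99 in KLF2 and KLF4, and at base 102 in KLF13. The other members differed: KLF3 held GGAC at base 186, KLF9 at base 152 and KLF11 nowhere in the segment. In KLF6 and KLF10 at base 62 and in KLF2 and KLF4 at base 99 a G followed GGAC, so these do not meet the wider DRACH motif. As a background, 67.1% of 19107 canonical coding transcripts held GGAC in their last 243 coding nt. Base 213 was chosen because its DRACH motif was the one that most members shared. It was held by 8 members, the exceptions being KLF2 and KLF13. Of the 19107 canonical transcripts, 2.97% held DRACH at base 213 of their last 243 coding nt. Because the base was picked from these members, that share is no test of them. Its position also differs, since the segments of KLF9, KLF10, KLF11 and KLF13 ended 60 to 120 nt before the end of the stop codon. The 8 members are related in sequence and are therefore not independent instances. Bases 201 to 230 are given here to show that shared motif, with the DRACH at base 213 in capitals and no capitals where a member lacked it.
KLF2 (chr19:16437794-16437823, plus strand): cttctcgcgctccgatcacctggcgctgca
KLF3 (chr4:38698830-38698859, plus strand): cttctcccgttcTGACCatcttgccctcca
KLF4 (chr9:110248051-110248080, minus strand): attttccaggtcGGACCacctcgccttaca
KLF5 (chr13:73649973-73650002, plus strand): cttctcgcgctcTGACCacctggccctgca
KLF6 (chr10:3821750-3821779, minus strand): tttttccaggtcTGACCacctggccctgca
KLF7 (chr2:207945956-207945985, minus strand): tttttccaggtcTGACCatcttgccctcca
KLF9 (chr9:73002765-73002794, minus strand): cttcatgaggagTGACCacctcacaaagca
KLF11 (chr2:10192481-10192510, plus strand): tttcatgcgcagTGACCacctgacgaagca
KLF13 (chr15:31664340-31664369, plus strand): cttcatgcgcagcgaccacctgaccaagca

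Peaks covered the segment to very different extents. In KLF3, KLF4, KLF5 and KLF10 all 243 nt lay under a peak in all 4 lists. KLF2 was covered over 100% in Control 1, Control 2 and FUSO 1 and over 85.6% in FUSO 2. In KLF6 the peak ran out within the segment and covered 60.5% and 85.2% in Control against 48.1% and 60.5% in FUSO. KLF7 had a gap in the middle of the segment, with 63.4% and 75.7% covered in Control and 38.7% in each FUSO list. KLF6 overlapped between the groups at 60.5%, whereas KLF7 did not and had less covered in FUSO. Over its whole transcript KLF7 instead had more covered in both FUSO lists (1553 and 1264 nt, against 895 and 1233 nt in Control). No share over all genes was computed for this segment, so whether the KLF7 difference is unusual was not tested. No base of the KLF9 segment was under a peak in any list. KLF11 was covered over 0% and 100% in Control and over 0% and 85.2% in FUSO, and KLF13 over 0% and 97.5% in Control and 11.5% and 0% in FUSO, so in both genes the replicates of a group disagreed.

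**Figure D1:**
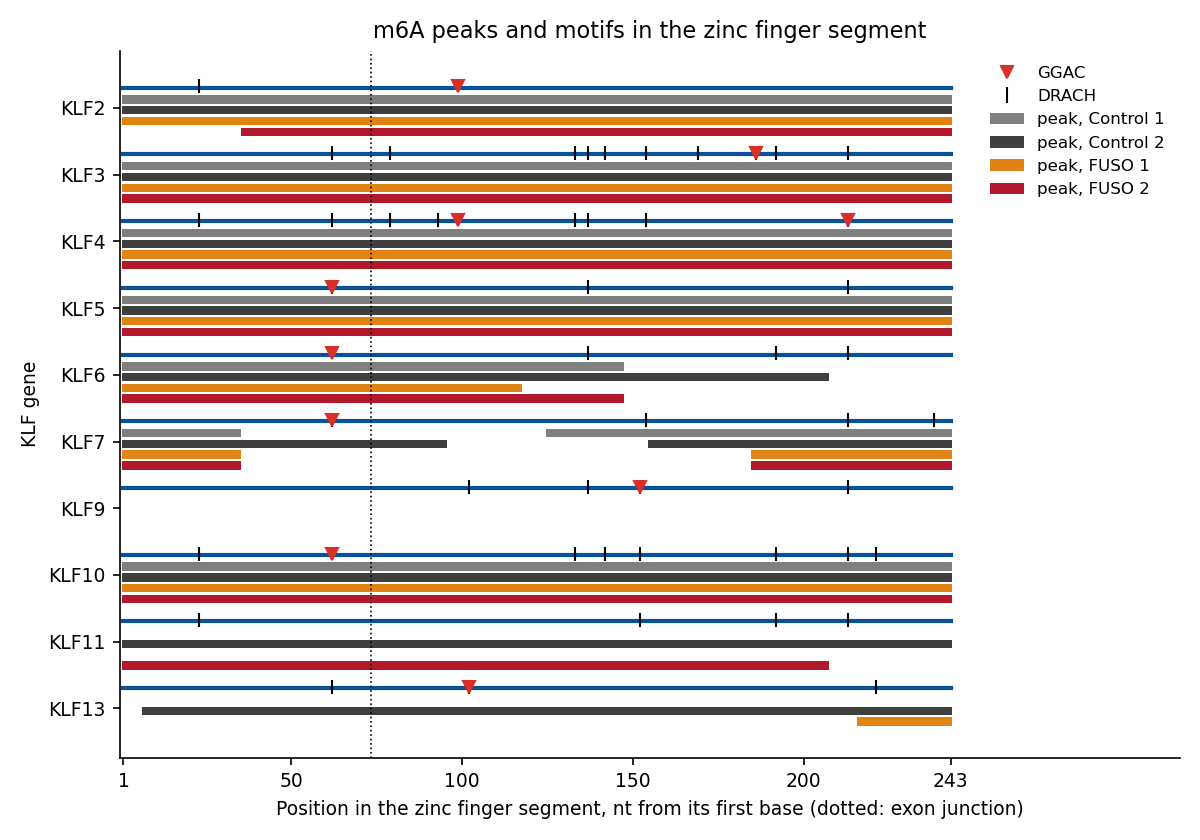
Bars show where peaks lay over the 243 nt zinc finger segment of each KLF gene in the 4 lists, with position in nt from the first base of the segment on the horizontal axis, GGAC as triangles and DRACH as ticks. KLF3, KLF4, KLF5 and KLF10 are covered throughout in all 4 lists, KLF7 has a gap in each list, and KLF9 has no peak.

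The adenosine of the GGAC at base 62 was under a peak in all 4 lists in KLF5, KLF6 and KLF10, but only in the Control 2 list in KLF7. That of the GGAC at base 99 was covered in all 4 lists in both KLF2 and KLF4. The motif shared at base 213 was covered in all 4 lists in KLF3, KLF4, KLF5, KLF7 and KLF10, in Control 2 alone in KLF11, and in none in KLF6 and KLF9. A shared motif in the coding sequence was thus under a peak in some members and not in others. Of those not covered in every list, KLF9 and KLF11 averaged only 1.62 and 1.78 FPKM over the input libraries, and KLF6 33.5 FPKM. KLF7, covered in all 4 lists, averaged 1.49 FPKM. What part the mRNA level had in the missing peaks was not tested. Peaks do not resolve single adenosines, so a covered motif is a position inside a peak and not a measured methylation site.

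Across the whole transcripts, the KLF genes carried 18 and 20 peaks in the Control lists and 19 and 21 in the FUSO lists. The means were 19 ± 1.41 and 20 ± 1.41 peaks (SD, n = 2), a difference within the spread of the replicates (two-sided exact permutation test, p = 0.667; the smallest p that 2 lists against 2 allow is 0.33). Keeping peaks with p of at most 1e-05 left 10 and 12 in Control and 14 and 12 in FUSO (exact permutation p = 0.667). Peaks covered 9292 and 12439 nt of the 46650 nt of KLF transcripts in Control and 11539 and 10985 nt in FUSO, so both FUSO lists lay between the Control lists. Of the 10 members taken singly, only KLF7 had covered lengths that did not overlap, with 895 and 1233 nt in Control and 1553 and 1264 nt in FUSO (exact permutation p = 0.33). Among the 8493 genes with a peak in every list, 15.2% had longer and 19.5% shorter covered lengths in both FUSO lists, so 1 member of 10 longer and 0 shorter was not above these shares.

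Merging peaks that overlapped gave 24 KLF regions. Of these, 13 were in all 4 lists, which is 54.2% of the KLF regions and 51.5% of the regions of all genes. Each of the 10 members had at least 1 region present in all 4 lists, as had 67.2% of the genes tested for expression. By their midpoint, 9 regions lay in the coding sequence and 8 of these were in all 4 lists. Another 4 lay within 100 nt of the stop codon (2 in all 4 lists), 10 in the 3′UTR (3 in all 4 lists) and 1 in the 5′UTR (0 in all 4 lists). The midpoint does not show which long regions cross the stop codon. A peak crossed it in all 4 lists in KLF2, KLF3, KLF4, KLF5, KLF7, KLF10 and KLF13. Regions found in 1 or 2 lists were short: all 9 were a single exon block, of 61 to 210 nt.

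**Figure D2:**
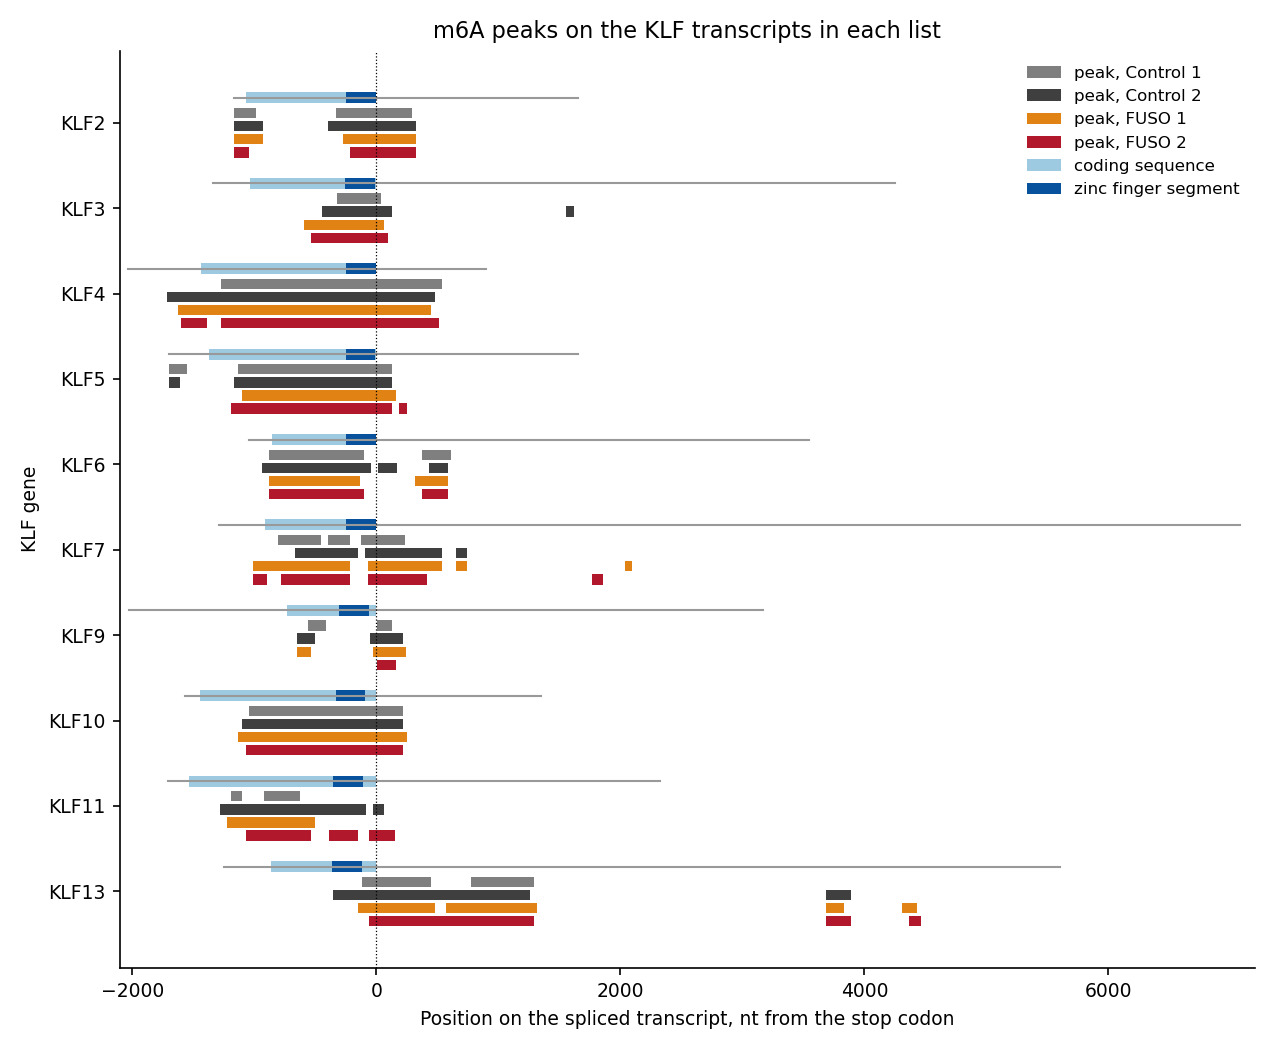
Peaks of each list are drawn on the spliced transcript of each KLF gene, with position in nt from the stop codon on the horizontal axis, the coding sequence in light blue and the zinc finger segment in dark blue. Long peaks over the coding sequence recur in all 4 lists in KLF4, KLF5, KLF6 and KLF10. The short peaks of the KLF5 5′UTR and of the KLF7 and KLF13 3′UTRs beyond the long peaks are in some lists only.

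KLF4 and KLF10 each had 1 long region. In KLF4 (chr9:110247492-110251732, minus strand) it spanned 2361 nt of exons, and 1722 nt, 58.7% of the transcript, were covered in all 4 lists, including 88.3% of the coding sequence. KLF10 was covered over 1258 nt in all 4 lists, 43.2% of the transcript. KLF5 region 2 (chr13:73633647-73650181, plus strand) likewise took in 80.3% of the coding sequence in all 4 lists, and KLF6 region 1 (chr10:3821773-3827294, minus strand) 84.5%. In KLF13 the region in all 4 lists instead lay mostly in the 3′UTR (chr15:31619926-31665821, plus strand), with 6.69% of the coding sequence and 16.6% of the 3′UTR covered throughout. KLF2, a factor of endothelial and T cell quiescence, was the one member with its whole 5′UTR, 98 nt, under a peak in every list.

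The other members divided their m6A over several regions. The genomic spans of these regions include introns, and their lengths are those of the peaks of all lists merged. KLF2 had a second region across the stop codon (chr19:16436627-16438164, plus strand, 715 nt of exons) in all 4 lists. KLF3 had one over its last 4 exons (chr4:38690593-38699008, plus strand, 718 nt) in all 4 lists. KLF6 had a 3′UTR region of 300 nt (chr10:3821116-3821415, minus strand) in all 4 lists, with p from 1.1e-05 in Control 2 to 6.3e-13 in FUSO 1. Besides these, KLF3 and KLF6 each had a short region in Control 2 alone, with p of 0.0017 and 0.00035.

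KLF7, the longest transcript with 8365 nt, had the most regions, 5. A coding region (chr2:207953284-208030397, minus strand, 931 nt) and the region that follows it into the 3′UTR (chr2:207945401-207953254, 661 nt) were in all 4 lists. The other 3, of 61 to 91 nt further along the 3′UTR, were in 1 or 2 lists. KLF9 had a region at the stop codon (chr9:73002446-73002745, minus strand, 300 nt) in all 4 lists with p from 0.002 in Control 1 to 4.3e-06 in FUSO 1, and a coding region (chr9:73027957-73028196, 240 nt) that was absent from FUSO 2 alone. KLF11 had 1 coding region (chr2:10186493-10192547, plus strand, 1194 nt) in all 4 lists and a stop codon region of 210 nt in Control 2 and FUSO 2. Only in Control 2 did 1 peak cover the whole coding region, while Control 1 and FUSO 2 each had 2 shorter peaks in it. Covered in all 4 lists were 299 nt, 7.41% of the KLF11 transcript. KLF13 had a distal 3′UTR region (chr15:31668184-31668394, plus strand, 211 nt) in every list but Control 1.

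1 KLF region was lost, meaning present in both Control lists and in neither FUSO list, against 2.64% of all regions. It was the 5′UTR region of KLF5 (chr13:73633137-73633287, plus strand, exon 1), 151 nt long with a GC content of 70.9%. Its p was 7.2e-05 in Control 1 and 0.00041 in Control 2, both weaker than the 1e-05 limit used above. 1 region was gained, meaning the reverse, against 2.38% of all regions. This was the most distal 3′UTR region of KLF13 (chr15:31668812-31668962, plus strand, exon 2), of 151 nt and 54.3% GC, with p of 0.00055 in FUSO 1 and 0.0003 in FUSO 2. With 24 KLF regions, counts of 1 lost and 1 gained are near the share of all regions. Neither was left among the 14 KLF regions formed from peaks with p of at most 1e-05, where 0 were lost and 0 gained. Leaving out the FUSO 1 list raised the gained regions to 4 and leaving out FUSO 2 or Control 2 raised them to 2, while leaving out Control 1 raised the lost regions to 3 and leaving out FUSO 1 to 2. The shares of all regions rose too when 1 list was left out, to between 4.44% and 11.3% lost and between 4.31% and 11.3% gained. Around the motif nearest the middle of each region the 30 bases were as follows, with GGAC of the lost KLF5 region and DRACH of the gained KLF13 region in capitals. The lost KLF5 region held this 1 GGAC, which a G follows, and 0 DRACH motifs.
KLF5 (chr13:73633248-73633277, plus strand): gtggccgcccggaGGACgttggcgtttacg
KLF13 (chr15:31668829-31668858, plus strand): acctttgtaccaGAACTtggatgcatagtc

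The strength of the strongest peak, given by its p in the list, differed between the groups in 5 members. In KLF6 the lowest p was 1.3e-97 and 1e-177 in Control and 1e-252 and 1e-212 in FUSO. In KLF5 it was 2e-63 and 1e-74 in Control and 1e-130 and 1e-114 in FUSO. KLF10 gave 2.5e-98 and 1e-123 in Control and 1e-149 and 1e-160 in FUSO. These members had lower p in both FUSO lists than in both Control lists, as did KLF7 (0.00011 and 7.1e-10, then 7.9e-13 and 6.3e-13) and KLF13 (4e-24 and 1.6e-56, then 1.6e-76 and 3.2e-62). That made 5 members of 10 with a lower p in both FUSO lists and 0 with a higher p in both, where 15.6% and 19.7% of the 8493 genes with a peak in every list did so. A peak p becomes lower with more fragments as well as with more enrichment, and KLF5, KLF6, KLF10 and KLF13 also had higher FPKM in both FUSO inputs. Control 1 gave the highest p in 9 of the 10 members and in 34.7% of all genes with a peak in every list. Without Control 1 the same 5 members had lower p in FUSO, against 23.9% of all genes, and without Control 2 the count was 9, against 38.9%. Without FUSO 1 it was 6, against 20.7%, and without FUSO 2 it was 7, against 42.3%. Members that are apart with all lists stay apart by construction when 1 list is left out, so the counts could only rise. These shares of all genes moved with the list left out. The part of input level and of IP depth in these values was not tested.

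**Figure D3:**
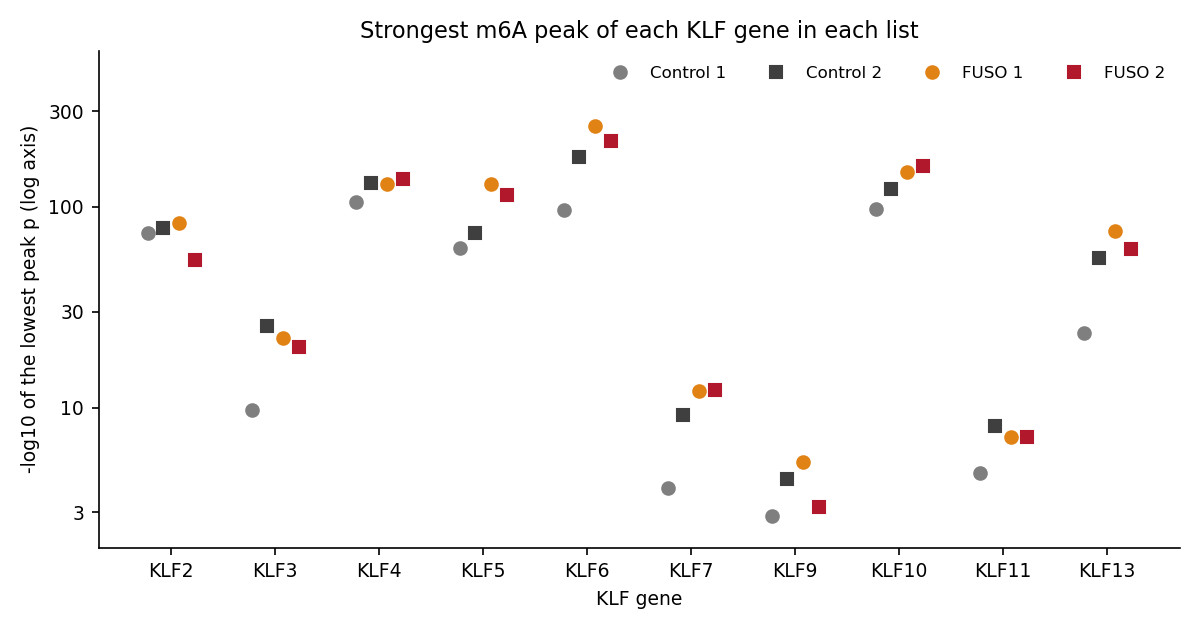
The lowest peak p of each KLF gene in each list is plotted as its −log10 on a log axis, circles for replicate 1 and squares for replicate 2. Both FUSO points lie above both Control points in KLF5, KLF6, KLF7, KLF10 and KLF13, and Control 1 is the lowest of the 4 points in every gene but KLF2.

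The remaining members did not separate. KLF2 had its weakest strongest peak in FUSO 2 (4e-55, against 1.3e-74 and 2.5e-79 in Control and 7.9e-84 in FUSO 1). KLF9 ranged from 0.0013 in Control 1 to 4.3e-06 in FUSO 1 and KLF11 from 2e-05 in Control 1 to 8.1e-09 in Control 2. The strongest peak of KLF6 was among the 1.40% to 5.78% of peaks with the lowest p in its list, while 62.6% to 87.5% of peaks had a lower p than that of KLF9. The members with the faintest peaks, KLF7, KLF9 and KLF11, were also those with the lowest mRNA.

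mRNA levels fell into 3 ranges. Averaged over the 4 input libraries, KLF6 (33.5 FPKM), KLF5 (29.7 FPKM), KLF10 (24.0 FPKM) and KLF4 (22.4 FPKM) were highest, above 73.2% to 81.2% of the genes tested. KLF13 (10.9 FPKM), KLF2 (10.1 FPKM) and KLF3 (5.93 FPKM) were intermediate, and KLF11 (1.78 FPKM), KLF9 (1.62 FPKM) and KLF7 (1.49 FPKM) were low. Within Control, KLF5 and KLF6 overlapped in level, as did KLF2 and KLF13, and KLF7 and KLF9, whereas KLF4, KLF10, KLF3 and KLF11 were each apart from their neighbours in the order. In bulk RNA, a change in the share of cells that express a gene and a change in RNA per cell cannot be told apart.

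KLF6, a zinc finger activator known as a tumour suppressor and early response gene, was 25.5 and 26.0 FPKM in Control and 41.0 and 41.4 FPKM in FUSO. Both FUSO libraries were above both Control libraries, and the replicates of each group were close together. KLF6 rose by 0.66 on the log2(FPKM + 1) scale (SE 0.058, 95% interval 0.51 to 0.80, limma adjusted p = 0.0137), a ratio of mean FPKM of 1.60. It was the only member called at an adjusted p under 0.05, beside 0.667% of all 11088 genes tested called higher and 0.135% called lower. Without FUSO 1 or without FUSO 2 the change was 0.66 and 0.65 but the call was lost, with adjusted p = 0.196 and 0.192.

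KLF10, an early gene of TGF-β signalling that represses transcription (chr8:103661012-103667953, minus strand, GRCh37), had the largest change of the 10 and the widest spread. It was 12.6 and 17.1 FPKM in Control and 42.7 and 23.8 FPKM in FUSO. The groups did not overlap, although FUSO 1 and FUSO 2 lay far apart. The log2 change was 1.07 (SE 0.283, 95% interval 0.36 to 1.78), a ratio of mean FPKM of 2.24, and did not pass the threshold (limma adjusted p = 0.246). It was 0.66 without FUSO 1 and 1.48 without FUSO 2.

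KLF5, which drives crypt cell proliferation, was 26.3 and 24.8 FPKM in Control and 33.0 and 34.9 FPKM in FUSO. KLF4, the differentiation factor, was 19 and 19.8 FPKM in Control and 26.0 and 24.7 FPKM in FUSO. In both genes the groups were apart by more than the spread of the replicates. The log2 changes were 0.40 (SE 0.067, adjusted p = 0.106) and 0.37 (SE 0.067, adjusted p = 0.131), so neither passed across all genes in limma. KLF4 and KLF5, often described with opposite roles in the gut, thus had estimates of the same sign. KLF3, a repressor that binds CtBP, was 5.52 and 4.98 FPKM in Control and 6.75 and 6.45 FPKM in FUSO (log2 change 0.28, SE 0.086, adjusted p = 0.288).

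**Figure D4:**
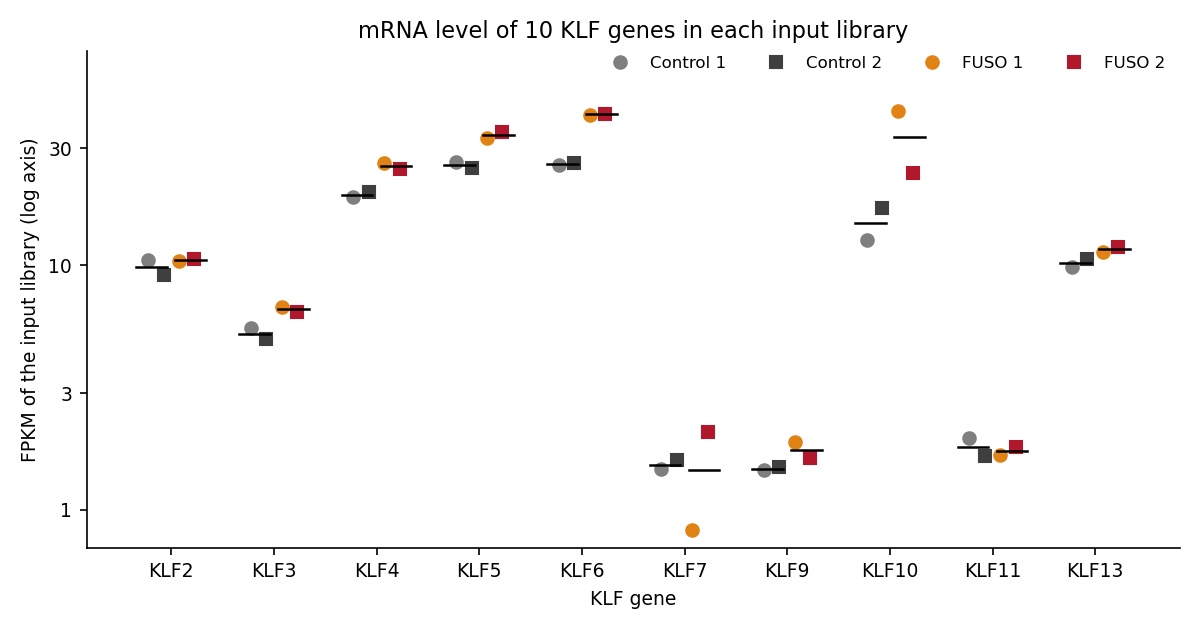
FPKM of the 10 KLF genes are plotted on a log axis for the 4 input libraries, circles for replicate 1 and squares for replicate 2, with a line at each group mean. KLF6 at 25.5 and 26.0 in Control and 41.0 and 41.4 in FUSO has tight replicates, while the FUSO replicates of KLF10 and KLF7 lie far apart.

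KLF13, KLF9 and KLF11 bind the SIN3A corepressor. KLF13 was 9.78 and 10.6 FPKM in Control and 11.3 and 11.8 FPKM in FUSO (log2 change 0.17, adjusted p = 0.414). KLF9 was 1.46 and 1.49 FPKM in Control and 1.89 and 1.63 FPKM in FUSO (log2 change 0.16, adjusted p = 0.523). In these 2 genes the libraries did not overlap, but the intervals of the change, -0.02 to 0.36 and -0.09 to 0.40, included 0. KLF11, at 1.97 and 1.66 FPKM in Control and 1.68 and 1.81 FPKM in FUSO, overlapped between the groups (log2 change -0.03, 95% interval -0.29 to 0.22).

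KLF2 overlapped as well, with 10.5 and 9.13 FPKM in Control and 10.4 and 10.6 FPKM in FUSO (log2 change 0.09, 95% interval -0.12 to 0.31, adjusted p = 0.658). KLF7, a factor of neuronal development, was 1.47 and 1.60 FPKM in Control and 0.824 and 2.08 FPKM in FUSO. Its FUSO libraries fell on either side of both Control libraries, and the log2 change of -0.09 (95% interval -0.71 to 0.52) turned to 0.28 without FUSO 1. KLF7 and KLF10 were the members in which FUSO 1 and FUSO 2 differed most, in KLF10 with FUSO 1 higher and in KLF7 with FUSO 2 higher.

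Counted over the members, all 10 passed the filter of a mean of 1 FPKM. In 7 of them (KLF3, KLF4, KLF5, KLF6, KLF9, KLF10 and KLF13) both FUSO libraries were above both Control libraries, as in 26.1% of all genes tested. In 0 members were both below, as in 21.1% of all genes tested. At an unadjusted limma p under 0.05, 5 members were higher (KLF3, KLF4, KLF5, KLF6 and KLF10), against 7.04% of all genes tested. The median log2 change of the 10 members was 0.22, and that of all genes tested 0.01. KLF12 and KLF16, the other KLF genes tested, are not among the members and overlapped between the groups. The members were not drawn at random: they share a regulatory family and were chosen with earlier results of these data known. These counts therefore describe the 10 genes, not the whole family, and were given no test.

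**Figure D5:**
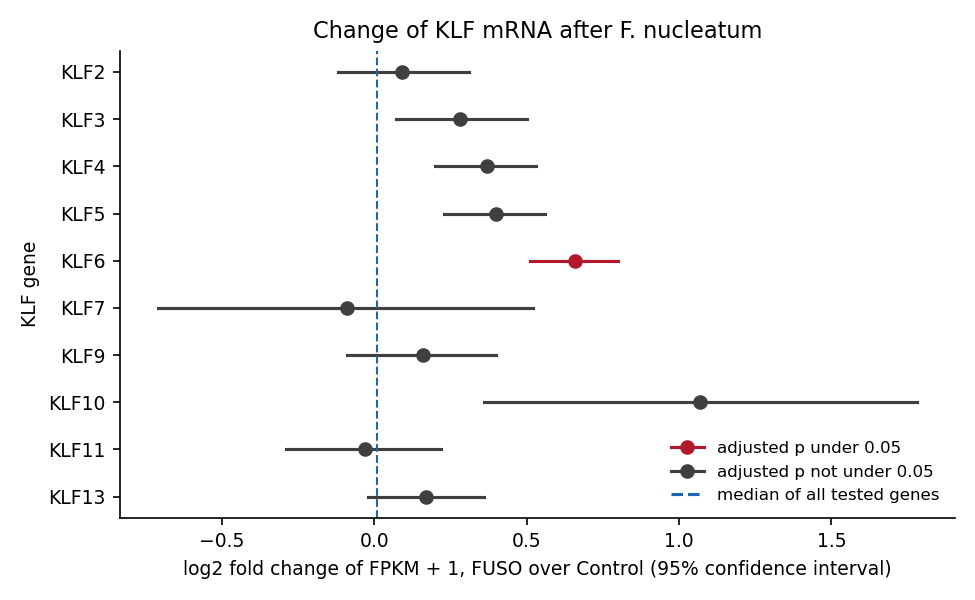
Points are limma log2 fold changes of FPKM + 1, FUSO over Control, with 95% confidence intervals for each KLF gene, and the dashed line is the median of all genes tested (0.01). Only KLF6 (0.66) passes an adjusted p of 0.05, and the KLF10 interval (0.36 to 1.78) is the widest of those that exclude 0.

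Of the 8 other KLF genes, only KLF12 and KLF16 reached a mean of 1 FPKM. Their log2 changes were -0.01 (95% interval -0.26 to 0.24) and -0.06 (95% interval -0.27 to 0.15). KLF1, KLF17 and KLF18 were listed at 0 in all 4 libraries. The SP proteins share the zinc finger array and bind GC boxes. Of 9 SP genes, 4 were tested and 0 passed an adjusted p of 0.05 in limma, or an unadjusted p of 0.05, with changes from -0.35 (SP3) to 0.11 (SP6) and a median of -0.08.

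Partners of the KLF proteins were measured with the same fit. Of the 6 corepressor genes 0 passed at the adjusted or the unadjusted threshold, with changes from -0.16 (SIN3A) to 0.06 (HDAC1). The acetyltransferase coactivators EP300 and CREBBP both had a change of 0.19, with adjusted p = 0.461 and 0.460 in limma. The ubiquitin ligases FBXW7 and WWP1, which act on KLF5, had changes of -0.18 and 0.07. The MAP kinase ERK5 (MAPK7) and the MEF2 factors lie upstream of KLF2 and KLF4. Of these 7 pathway genes 0 passed at an adjusted p of 0.05 and 2 were higher at an unadjusted p of 0.05, the threshold that 7.04% of all genes tested passed as higher. They were MEF2C (2.0 and 2.11 FPKM in Control, 3.31 and 2.82 FPKM in FUSO, adjusted p = 0.226) and MEF2D (6.60 and 6.92 FPKM, then 9.03 and 8.24 FPKM, adjusted p = 0.244).

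Among 11 genes known as targets of KLF proteins, 8 were tested. At an adjusted p under 0.05 in limma, 1 was called higher and 0 lower, beside 0.667% and 0.135% of all genes tested. In 4 both FUSO libraries were above both Control libraries and in 1 both were below, as in 26.1% and 21.1% of all genes tested. The one called was CDKN1A, the cyclin-dependent kinase inhibitor p21, which KLF4 and KLF6 are known to induce. It was 85.7 and 89.9 FPKM in Control and 126 and 125 FPKM in FUSO (log2 change 0.52, 95% interval 0.38 to 0.65, limma adjusted p = 0.0244). The call was lost without the filter on low values (adjusted p = 0.0566), without the trend (0.0791), without FUSO 1 (0.301) and without FUSO 2 (0.276). PDGFA was higher at the unadjusted threshold alone (13.5 and 12.5 FPKM, then 15 and 15 FPKM, adjusted p = 0.346), while the cell cycle genes CCND1 and CCNB1 had changes of -0.03 and -0.13. Many factors other than KLF proteins act on these genes.

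RefSeq promoters (GRCh38.p14, 250 bases before to 50 after the start) were at hand for 8 members, KLF3 and KLF10 having no entry. Motifs were searched on both strands, and KLF5, KLF7 and KLF11 had more than 1 promoter. A member was counted if any of its promoters held the motif, while the shares of all promoters count each promoter singly. Members with more promoters therefore had more chances to hold a motif than the shares allow for. The GC box GGGCGG was in 7 of the 8 members, KLF9 being the exception, and in 45.0% of all 35116 promoters. The KLF box CACCC was in 4 (KLF5, KLF7, KLF11 and KLF13), and in 59.9% of all promoters. The cyclic AMP element TGACGTCA was found in KLF11 alone (1.85% of all promoters) and the CArG box, bound by SRF, in KLF7 alone (1.29%). Neither the AP-1 motif TGANTCA (7.71%) nor the NF-kB site (5.91%) was found in any of the 8. Of the motifs searched, KLF6 held the GC box alone, as did KLF2 and KLF4.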

How the data were processed

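m6A sequencing of HCT116 cells comprised Control and FUSO (F. nucleatum) groups, each with 2 input and 2 IP libraries, assigned from the sample titles. Per the submitters' processing notes the authors used Trim Galore 0.3.3, HISAT2 2.1.0 (hg19) and StringTie (no version given). The deposited expression values were FPKM of the 4 input libraries, computed by the authors. The 4 deposited peak lists, 1 per replicate, held exon blocks, a gene name and a score that was read as the authors' uncorrected p-value. The methods name MACS2, whereas the layout is that of exomePeak, so the program is uncertain. Since FPKM are not counts, the count model of the study was not used.

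The 11088 genes averaging 1 FPKM or more were fitted in limma (version 3.58.1, R 4.3.3) with lmFit and trended eBayes on log2(FPKM + 1), Benjamini-Hochberg adjusted over all genes tested, with calls at 0.05. The pseudocount understates changes of low genes. Adjusted p-values in the text are from this fit. Peaks on the same strand sharing at least 1 bp of exon were merged into regions, placed on GENCODE release 44 canonical transcripts mapped to GRCh37, and classed by midpoint. Coordinates are 1-based. The zinc finger segment was found by its cysteine and histidine spacing in the translated coding sequence. List values were compared by two-sided exact permutation tests. Relative input depth came from the most frequent ratio of FPKM among genes at or below 0.05 FPKM. The steps were tested on simulated data. Other steps used Python 3.11.15, NumPy 2.4.6, pandas 2.3.3, SciPy 1.17.1 and Biopython 1.88.

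All 10 members were named with their values. Of the lists of related genes, partners and targets, each gene passing the adjusted threshold was named, and others where needed to describe a count. Members and lists were chosen with earlier results of these data known. No pair of libraries held identical values. The labels do not say that replicates were separate cultures, so p-values measure the spread between these libraries, which may be technical. Alternatives were another pseudocount, no filter, quantile normalization, GC correction, no trend, a replicate block, leaving out each replicate, a stricter peak p and a reciprocal overlap of 50%. The strongest peak without each list was added after seeing the data.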

Additional observations from a re-analysis of the deposited data

How the results depend on the processing

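The log2 change of KLF6 stayed between 0.63 and 0.67 under every alternative run, and its call held in 8 of 10, lost without FUSO 1 or FUSO 2. The other 9 members passed the adjusted threshold under none of the 10. With 1 replicate left out at a time, KLF7 ranged from -0.47 to 0.28 (the latter without FUSO 1) and KLF11 from -0.11 to 0.05 (the latter without Control 1). The same alternatives gave 0 to 1 members called higher, 16 to 284 genes called in all, 1 to 3 KLF regions lost, 1 to 4 gained (shares of all regions 4.44% to 11.3% and 4.31% to 11.3%) and a difference of 0 to 2 KLF peaks per list. Without the filter 40 genes were called, against 89. Peaks with p of at most 1e-05 left 14 KLF regions, 0 lost and 0 gained. An overlap of 50% gave 32 KLF regions with 1 lost and 1 gained. No alternative moved the median log2 change of all genes by over 0.1. Some alternatives had fewer samples or peaks, and the cause of these changes was not tested.

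With a replicate block, 90 genes were called against 89, and KLF6 changed by 0.66 (limma adjusted p = 0.0170). Deviations of same-numbered input libraries from their group means correlated at 0.0243 over the genes tested. That value cannot show whether same-numbered samples shared a culture or a batch, and the labels do not say. No pairing was used in the main fit.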
